A study of Mus musculus with 77 samples.

Results

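Neurod1, Neurod2, Neurod4, Insm1 and Atoh8 are transcription factor genes known as early targets of proneural proteins, and their expression was followed in mouse pancreatic ductal organoids that were made to express Neurogenin3 (Ngn3, gene Neurog3). They were taken by Ensembl identifier and are 5 of the 46078 genes in the deposited table of read counts. The organoids are three-dimensional cultures grown from pancreatic ducts of adult C57BL/6 mice, and RNA was sequenced from 77 pools of 50 sorted cells in 7 groups with 3 biological replicates each. The comparison asks how these genes responded to wild-type (WT) Ngn3 and to 6S-A Ngn3, in which the serines of 6 serine-proline sites, targets of cyclin-dependent kinases, are replaced by alanine.

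At 2 days of doxycycline there were 18 pools each of cells with WT Ngn3, with 6S-A Ngn3 and with GFP alone. At 8 days there were 5 pools of WT Ngn3 cells, 6 of 6S-A Ngn3 cells, and 6 each of cells without color sorted from the WT and from the 6S-A organoids (no-color cells), which served as controls. All organoids came from the same mouse strain and were infected with lentiviral vectors of a Tet-on system, and both Ngn3 proteins were HA-tagged and made together with GFP. Several features limit these groups as models. The proteins were overexpressed from a vector in ductal cells of an adult, the pools of a biological replicate are technical repeats, and the no-color cells shared a culture with the cells they are compared with. Replicate 3 at 8 days was from passage 5 and was a single pool, whereas all other libraries were from passage 2. The labels do not say whether replicates came from separate mice, so p-values measure the spread between these samples. In pools of cells, fewer cells expressing a gene and less RNA per cell cannot be told apart.

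Proneural bHLH proteins such as Ngn3 pair with E proteins, bind E-box sequences in DNA and switch on a second tier of transcription factors that carries differentiation forward after the proneural protein itself has gone. Neurod1, Neurod2 and Neurod4 are bHLH factors of this second tier; Neurod1 is needed for islet endocrine cells and later takes part in insulin gene expression, while Neurod2 and Neurod4 are best known from neurons. Insm1 encodes a zinc finger repressor with an N-terminal SNAG domain that is needed for endocrine differentiation in pancreas and gut, and Atoh8 encodes a more distant bHLH factor that is transcribed in endocrine progenitors under Ngn3.

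Because these genes are discussed as targets of proteins that bind the E-box CANNTG, the stretches just before their transcription starts are shown for the 3 responding members with a promoter entry. Sequences are from RefSeq on GRCm38.p6, read 5′ to 3′ on the minus strand, from which all of them are transcribed. Capitals mark CANNTG, which reads the same on both strands; bases within annotated transcripts on the gene's strand were left out. Insm1 had no entry.
Neurod1, chr2:79456786-79456886: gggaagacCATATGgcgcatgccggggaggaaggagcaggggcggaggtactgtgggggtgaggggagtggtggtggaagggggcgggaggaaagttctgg
Neurod2, chr11:98329649-98329895: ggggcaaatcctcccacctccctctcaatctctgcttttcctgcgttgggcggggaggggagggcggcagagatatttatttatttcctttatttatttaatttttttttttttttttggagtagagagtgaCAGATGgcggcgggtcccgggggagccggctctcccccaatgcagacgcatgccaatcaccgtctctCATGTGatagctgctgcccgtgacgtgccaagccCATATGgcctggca
Atoh8, chr6:72235578-72235827: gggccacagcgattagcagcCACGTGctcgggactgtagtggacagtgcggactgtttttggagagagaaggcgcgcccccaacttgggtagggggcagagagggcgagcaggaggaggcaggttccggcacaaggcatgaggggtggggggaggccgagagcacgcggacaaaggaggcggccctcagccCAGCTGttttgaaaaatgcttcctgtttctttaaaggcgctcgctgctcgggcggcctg

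The Neurod1 window held a single match, CATATG, and 36.5% of 32851 promoter windows cut to the same length held any CANNTG. The Neurod2 window held 3 matches (marked above), CAGATG first, and 65.9% of windows of its length held at least 1 match. The first of these, counted on both strands, was in 14.4% of windows of that length. The Atoh8 window held CACGTG and CAGCTG, found in 6.02% and 13% of windows of that length, while the 250 bases before Neurod4 had no match. These are matches of letters in short windows and say nothing about binding.

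Each pool gave between 849278 and 9202142 reads on genes, and 76 of 77 libraries were kept under limits on spike-in share, reads and detected genes. Neurog3, the targeted gene, had 4 reads over all GFP pools but replicate levels of 219, 95.2 and 115 reads per 1000000 reads on genes (CPM) with WT and 213, 127 and 110 CPM with 6S-A Ngn3 at 2 days. At 8 days it stood at 7.58, 47.5 and 14.5 CPM with WT and at 10.8, 12.9 and 14.6 CPM with 6S-A Ngn3, against 25 reads over all no-color pools. Reads from the vector and from the mouse's own gene cannot be separated in these counts. All 9 ductal markers, Krt19 and Sox9 among them, were above 3 reads in every 2-day group, whereas the acinar genes Cpa1, Amy2a2 and Pnlip and the insulin gene Ins2 had no read in any library. Summed within each pool, the 9 islet endocrine markers ranged from 0 to 3.28 CPM with GFP, from 9.85 to 1225 CPM with WT and from 20.5 to 3311 CPM with 6S-A Ngn3 at 2 days; the 5 glial and neuronal markers, mainly Snap25, had medians of 4.56, 19.9 and 37.6 CPM, and the ductal markers 14320, 8454 and 6730 CPM. Acinar, mesenchymal and immune markers stayed at or below 43.2 CPM in every pool, and endothelial markers reached 105 CPM in 1 6S-A pool, all from Kdr. The part of these shifts in the results was not tested.

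Neurod1, Neurod2, Insm1 and Atoh8 were nearly silent in GFP cells and all 4 rose with either Ngn3 protein at 2 days, while Neurod4 had no read in any of the 77 libraries. With the mean CPM over replicates set against the reads pooled over all GFP pools, the rise was 5365-fold for Neurod1, 523-fold for Neurod2, 610-fold for Insm1 and 856-fold for Atoh8 with WT Ngn3, and 5751-fold, 684-fold, 773-fold and 919-fold with 6S-A Ngn3. All 4 members tested passed the threshold in both comparisons, where 6.56% of 23844 genes were called higher with WT and 9.43% with 6S-A Ngn3 (adjusted p under 0.05, Benjamini-Hochberg, from edgeR's quasi-likelihood fit).

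Neurod1 lies on GRCm38 chr2:79452521-79456751, minus strand. Its 3 biological replicates stood at 48.4, 23.6 and 150.3 CPM with WT Ngn3 and at 75.0, 56.6 and 106.8 CPM with 6S-A Ngn3, against 1 read over all 18 GFP pools. The third replicate was the highest for both proteins, and every replicate lay far above the GFP level. The means were 74.1 ± 67.2 CPM and 79.5 ± 25.4 CPM (SD, n = 3). Since the fold rests on 1 control read, its exact Poisson 95% interval, which covers counting error only, ran from 963 to 211890 for WT. The fitted log2 fold change, which depends on how so low a control is moderated, was 11.83 (SE 1.35, edgeR adjusted p = 0.00117) with WT and 11.93 (SE 1.35, edgeR adjusted p = 0.000712) with 6S-A Ngn3. Of its exon bases, 13.01% overlap other annotated genes, Cerkl on the same strand and Gm26755 on the opposite one, which had 455 reads and 3 reads over all libraries.

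Neurod2, at chr11:98325415-98329648 on the minus strand, was the lowest of the responding members. WT replicates stood at 3.67, 2.78 and 15.2 CPM, and 6S-A replicates at 8.27, 7.66 and 12.4 CPM, with 1 read over all GFP pools. As for Neurod1, the third replicate was the highest with either protein. The log2 fold change over GFP was 8.46 (SE 1.00, edgeR adjusted p = 0.000145) with WT and 8.85 (SE 1.00, edgeR adjusted p = 5.32e-05) with 6S-A Ngn3. The exact Poisson interval of the WT fold was 93.9 to 20672.

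Neurod4, on chr10:130268152-130280240, is expressed with Neurod1 in developing neural tissue and was the only silent member. A count of 0 allows up to 3 reads, or 0.0499 CPM over the WT pools, 0.0512 CPM over the 6S-A pools and 0.0414 CPM over the GFP pools at 2 days. At 8 days the limits were 0.169 CPM for WT and 0.0985 CPM for 6S-A Ngn3. It could therefore not be detected at this depth, and it was not tested.

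Insm1, a single-exon gene at chr2:146221921-146225020 on the plus strand, reached the highest read counts of the members. Its replicates stood at 67.7, 89.9 and 221.4 CPM with WT and at 131.9, 117.2 and 231.7 CPM with 6S-A Ngn3. Again the third replicate was the highest, and the lowest Ngn3 replicate was far above the pooled GFP level of 0.207 CPM, which came from 15 reads in 8 of 18 pools. Its fold therefore has the narrowest counting interval of the members, 370 to 1089 with WT and 469 to 1382 with 6S-A Ngn3. The log2 fold change was 9.16 (SE 0.76, edgeR adjusted p = 0.000143) with WT and 9.49 (SE 0.76, edgeR adjusted p = 6.49e-05) with 6S-A Ngn3.

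Atoh8, at chr6:72206177-72235577 on the minus strand, varied least. WT replicates stood at 14.2, 12.1 and 9.17 CPM and 6S-A replicates at 13.5, 12.4 and 12.2 CPM, with 1 read over the GFP pools. Unlike the other members, Atoh8 was lowest in replicate 3 of both proteins, although the 6S-A replicates hardly differed. Its means were 11.8 ± 2.52 CPM and 12.7 ± 0.701 CPM (SD, n = 3). The exact Poisson interval of its fold, which rests on that 1 control read, was 154 to 33802 with WT and 165 to 36302 with 6S-A Ngn3. The log2 fold change was 9.20 (SE 0.50, edgeR adjusted p = 1.05e-07) with WT and 9.28 (SE 0.50, edgeR adjusted p = 5.29e-08) with 6S-A Ngn3.

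**Figure D1:**
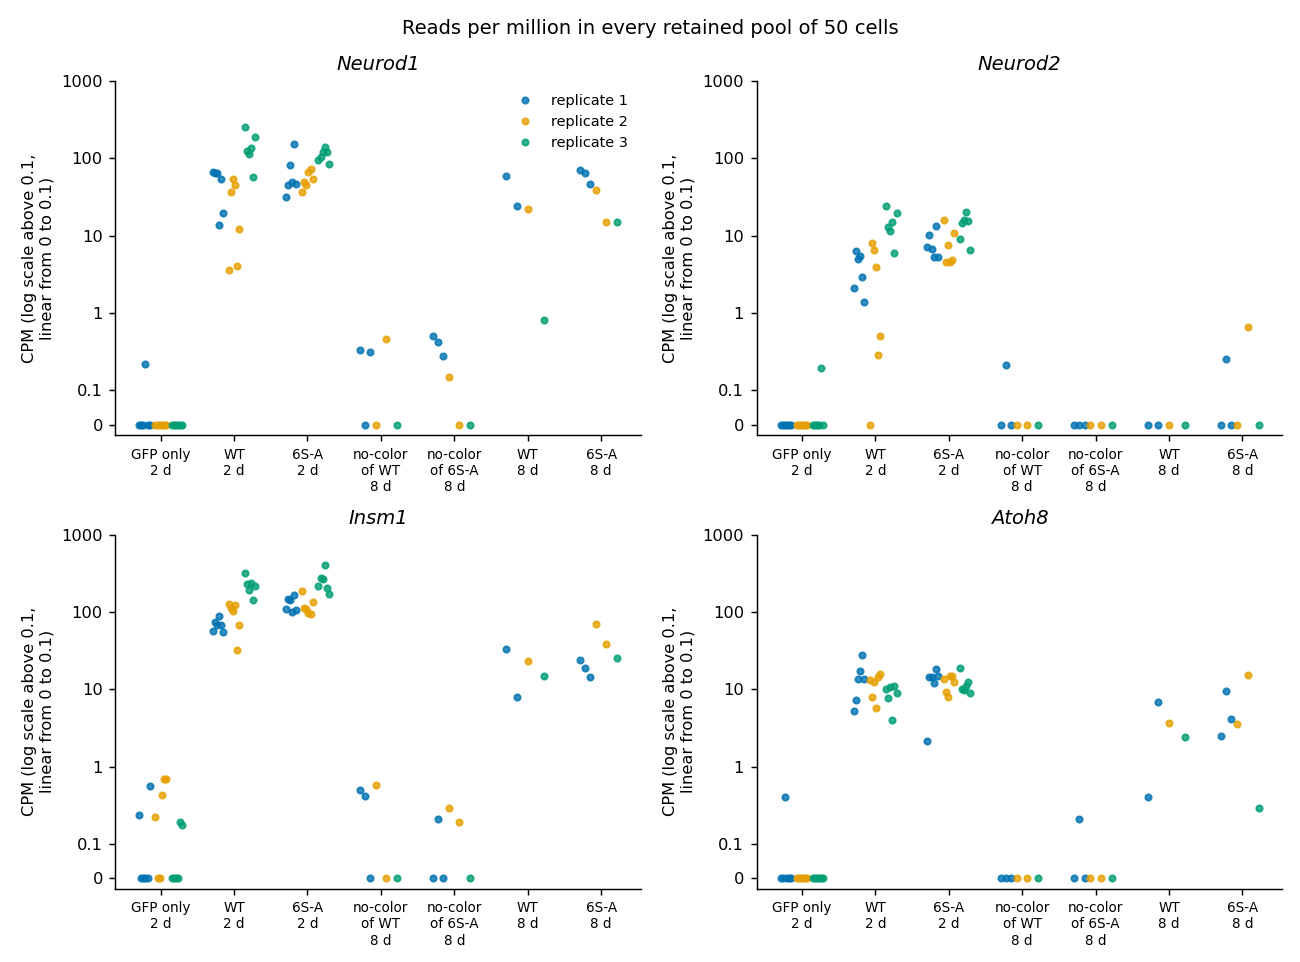
Level of Neurod1, Neurod2, Insm1 and Atoh8 in each retained pool of 50 cells, in reads per 1000000 reads on genes (CPM) on an axis that is linear near 0 and logarithmic above, by group. GFP and no-color pools sit at or near 0, and with either Ngn3 protein at 2 days Insm1 lies between 32.1 and 406 CPM in every pool.

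The pools within a replicate showed how evenly the response was spread. Neurod1, Insm1 and Atoh8 had reads in all 18 WT and all 18 6S-A pools at 2 days, and Neurod2 in 17 WT and 18 6S-A pools, whereas among 18 GFP pools Insm1 had a read in 8 and each other responding member in 1. Neurod1 ranged from 3.65 to 258 CPM (median 55.5) over WT pools and from 31.6 to 153 CPM (median 69.2) over 6S-A pools. Insm1 ranged from 32.1 to 321 CPM (median 109) and from 93.4 to 406 CPM (median 144). Every WT and 6S-A pool thus lay above every GFP pool for Neurod1 and Insm1.

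Neurod2 ranged from 0 to 24.1 CPM (median 5.77) over WT pools and from 4.57 to 20.1 CPM (median 8.34) over 6S-A pools. For Atoh8 the pools ran from 4.04 to 27.4 CPM (median 10.8) with WT and from 2.16 to 19.0 CPM (median 12.6) with 6S-A Ngn3. On a log2 scale the SD among pools of a replicate was 1.21 for Neurod1 and 1.18 for Neurod2 with WT, and 0.529 and 0.601 with 6S-A Ngn3. For Insm1 these SDs were 0.512 and 0.368, and for Atoh8 0.639 and 0.675. Without technical repeat 3, which lay close to repeat 2 in replicates 2 and 3, 15 pools a group remained and the SDs were 1.21 and 0.565 for Neurod1, 1.19 and 0.662 for Neurod2, 0.564 and 0.405 for Insm1 and 0.703 and 0.719 for Atoh8. These spreads hold counting error too and were not tested against each other.

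The lowest Neurod1 pools with WT Ngn3 were in replicate 2. Its pools 1, 5 and 6 had Neurod1 at 3.65, 4.02 and 12.3 CPM and Neurod2 at 0, 0.287 and 0.50 CPM, and every other 2-day Ngn3 pool had more Neurod1. Insm1 was nevertheless at 127, 32.1 and 68.5 CPM there, and Atoh8 at 13.1, 14.6 and 16.0 CPM, above the WT median in all 3. In these pools the summed islet endocrine markers were 9.85, 11.8 and 186 CPM, against 94.8 to 290 CPM in the other 3 pools of the replicate.

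Across the 36 Ngn3 pools at 2 days, as deviations from replicate means, Neurod2 followed Neurod1 (Pearson r = 0.693) and Insm1 (r = 0.629), and Neurod1 followed Insm1 less closely (r = 0.404). The Neurod1 and Neurod2 relation was 0.804 over WT and 0.205 over 6S-A pools, so it came mainly from the WT pools. Atoh8 went with Neurog3 (r = 0.469; 0.407 over WT and 0.541 over 6S-A pools), whereas r with Neurog3 was 0.143 for Neurod1 (0.080 over WT and 0.331 over 6S-A pools), −0.025 for Neurod2 and 0.015 for Insm1. Pools share organoids within a replicate and differ in depth, with which Neurog3 had r = 0.399, Atoh8 0.209 and Insm1 −0.36. With the summed islet endocrine markers, r was 0.626 for Neurod1, 0.483 for Neurod2, 0.373 for Insm1 and 0.198 for Atoh8. Over the 30 pools without technical repeat 3, r was 0.650 for Neurod1 with Neurod2, 0.640 for Neurod2 with Insm1, 0.473 for Neurog3 with Atoh8 and 0.202 for Neurog3 with Neurod1. Over the same 30 pools the relation to the endocrine markers, first over WT and then over 6S-A pools, was 0.785 and 0.411 for Neurod1, 0.710 and 0.136 for Neurod2, 0.483 and 0.192 for Insm1, and −0.339 and 0.705 for Atoh8, so for Atoh8 the sign differed. The values are descriptions of these pools.

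**Figure D2:**
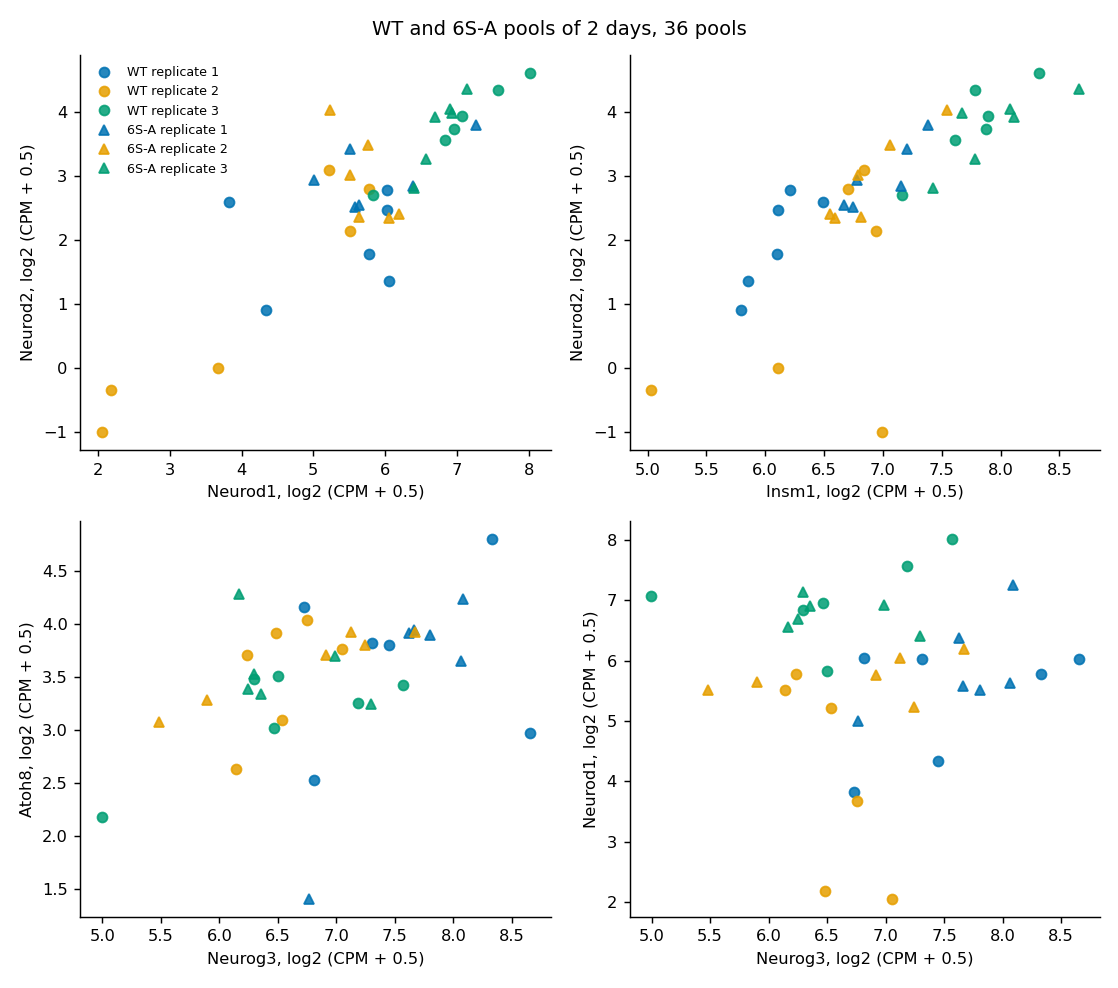
Levels of pairs of genes in the 36 Ngn3 pools at 2 days, each point 1 pool as log2 (CPM + 0.5). Circles are WT, triangles are 6S-A, and colors mark the replicate number. Neurod2 climbs with Neurod1 (r = 0.693 within replicates), Atoh8 climbs with Neurog3 (r = 0.469), and Neurod1 shows little relation to Neurog3 (r = 0.143).

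No member passed the threshold between 6S-A and WT Ngn3 at 2 days, a comparison in which 0.0126% of genes (3) were called without a replicate block. With that block 147 genes were called and by DESeq2 101, with no member among either. The log2 difference, 6S-A minus WT, was 0.10 (±2 SE, −1.11 to 1.30) for Neurod1, 0.38 (−0.69 to 1.45) for Neurod2, 0.33 (−0.56 to 1.22) for Insm1 and 0.08 (−0.44 to 0.60) for Atoh8, each with an edgeR adjusted p of 1. For Atoh8 this interval corresponds to a ratio of 0.739 to 1.51, and for Neurod1 to 0.463 to 2.46, so a change of the size of either bound could not be told from none. Neurog3 itself differed by 0.05 on this scale (SE 0.33).

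Within replicates 1 to 3, the 6S-A level was 1.55, 2.40 and 0.710 times the WT level for Neurod1 and 2.25, 2.76 and 0.814 times for Neurod2. For Insm1 the ratios were 1.95, 1.30 and 1.05, and for Atoh8 0.951, 1.03 and 1.33. Insm1 was thus the only member higher with 6S-A Ngn3 in 3 of 3 replicates. These differences moved with single replicates. Without WT replicate 3 they were 1.11 for Neurod1, 1.51 for Neurod2, 0.99 for Insm1 and −0.08 for Atoh8 on the log2 scale, still with no call (edgeR adjusted p = 0.368, 0.245, 0.354 and 0.992). Without any of 3 other replicates in turn (WT replicate 1, WT replicate 2 or 6S-A replicate 3) the Neurod1 difference was −0.13, −0.32 and −0.17. Without 6S-A replicate 3 the Insm1 difference was −0.024, and without WT replicate 1 the Atoh8 difference was 0.24. Using the first technical repeat alone the Neurod1 difference was −0.93. In a fit blocked on replicate number the differences were 0.42 for Neurod1, 0.73 for Neurod2, 0.44 for Insm1 and 0.10 for Atoh8, again with no call (edgeR adjusted p = 0.81, 0.513, 0.534 and 0.971).

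At 8 days Neurod1, Insm1 and Atoh8 were still well above the no-color cells, and Neurod2 had all but gone. Against the reads pooled over all no-color pools of both groups, Neurod1 was 105-fold higher with WT and 166-fold higher with 6S-A Ngn3, Insm1 112-fold and 187-fold, and Atoh8 218-fold and 342-fold. These 3 members passed the threshold in both comparisons, where 0.741% and 1.37% of genes were called higher. Neurod2 did not pass the filter on low counts at 8 days.

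Neurod1 stood at 41.9, 22.1 and 0.805 CPM in the WT replicates and at 61.3, 25.9 and 15.2 CPM in the 6S-A replicates, against 14 reads over all no-color pools. In both it was highest in replicate 1 and lowest in replicate 3, the single pool from passage 5. In that replicate the summed islet endocrine markers were 8.86 CPM with WT and 48.8 CPM with 6S-A Ngn3, against 1014 to 7434 CPM and 1756 to 7565 CPM in the other pools, and their part in the low Neurod1 level was not tested. The log2 fold change over no-color cells was 6.54 (SE 0.91, edgeR adjusted p = 0.00175) with WT and 7.22 (SE 0.93, edgeR adjusted p = 0.00052) with 6S-A Ngn3.

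Insm1 varied less between replicates at this time. Its replicates stood at 21, 23.4 and 14.7 CPM with WT and at 19.5, 53.7 and 25.5 CPM with 6S-A Ngn3, with 12 reads over all no-color pools. Replicate 3 was not set apart from the others here. The log2 fold change was 6.61 (SE 0.63, edgeR adjusted p = 5.83e-05) with WT and 7.39 (SE 0.64, edgeR adjusted p = 1.58e-05) with 6S-A Ngn3.

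Atoh8 stood at 3.59, 3.62 and 2.42 CPM with WT and at 4.88, 9.91 and 0.293 CPM with 6S-A Ngn3, with 1 read over all no-color pools. Its rise was the least secure call, and with 1 control read the exact Poisson interval of its fold was 39.2 to 8630 with WT and 61.4 to 13519 with 6S-A Ngn3. The log2 fold change was 7.08 (SE 1.33, edgeR adjusted p = 0.0201) with WT and 7.76 (SE 1.33, edgeR adjusted p = 0.00683) with 6S-A Ngn3. The WT call was lost without no-color replicates 1, 2 or 3 of the 6S-A organoids (adjusted p = 0.0517, 0.0563 and 0.0615), without no-color replicate 1 of the WT organoids (0.0792) and without WT replicates 1 or 2 (0.0694 and 0.0638). Both calls were lost against the no-color cells of the same organoids alone (edgeR adjusted p = 0.149 for WT and 0.0803 for 6S-A) and with the first technical repeat alone (0.117 and 0.0769).

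Between 6S-A and WT Ngn3 at 8 days no gene was called by edgeR or by DESeq2 (415 genes had an unadjusted p under 0.05 by edgeR). The log2 difference was 0.68 (±2 SE, −1.10 to 2.47) for Neurod1, 0.79 (−0.44 to 2.01) for Insm1 and 0.68 (−1.74 to 3.09) for Atoh8, so the intervals reached several-fold in the 6S-A direction. The 6S-A level in replicates 1 to 3 was 1.46, 1.18 and 18.9 times the WT level for Neurod1, 0.930, 2.29 and 1.73 times for Insm1, and 1.36, 2.73 and 0.121 times for Atoh8. The ratios of 18.9 and 0.121 both came from replicate 3. Without 6S-A replicate 2 the Atoh8 difference was −0.33, and the Neurod1 difference ran from 0.024 without 6S-A replicate 1 to 1.58 without WT replicate 1. In a fit blocked on replicate number the differences were 1.40 for Neurod1, 0.67 for Insm1 and −0.026 for Atoh8, each with an edgeR adjusted p of 1.

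**Figure D3:**
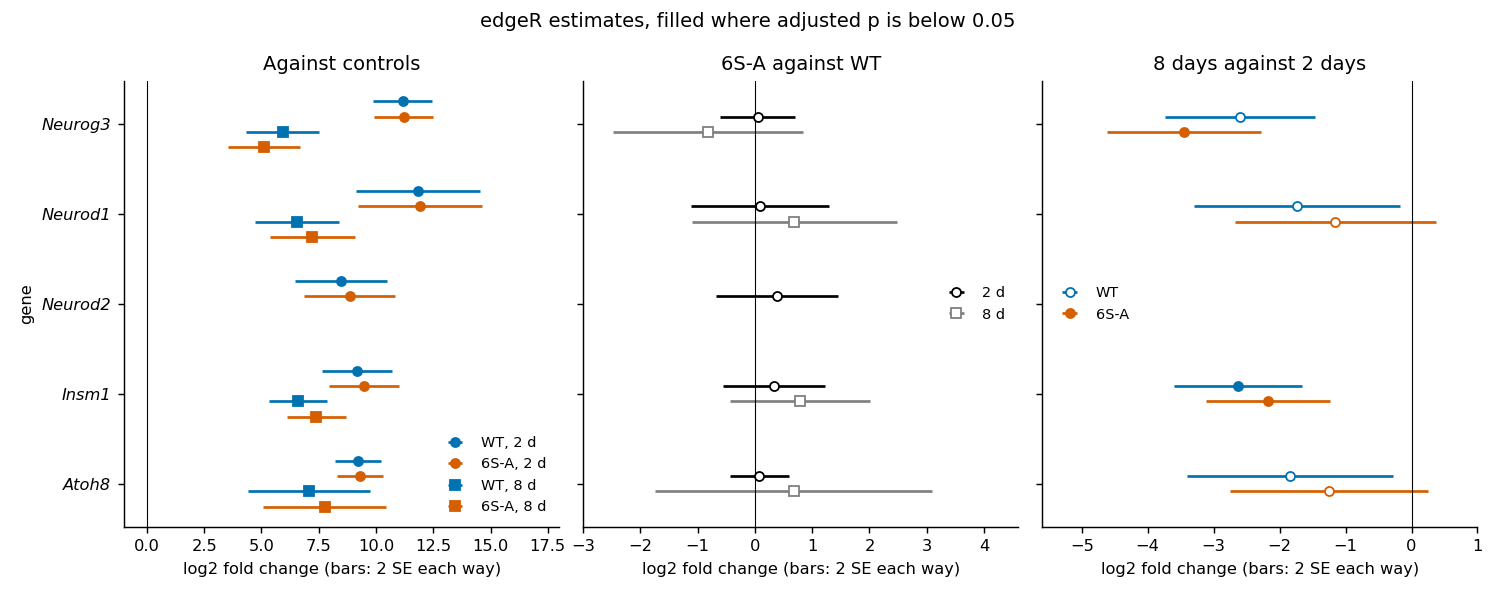
Fitted log2 fold changes of Neurog3 and the tested members with bars of ±2 SE, against the controls, between the 6S-A and WT proteins and between 8 and 2 days; filled symbols passed an adjusted p of 0.05. Changes over controls lie between 5.10 and 11.93, all differences between the proteins have bars that cross 0, and changes from 2 to 8 days are negative.

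From 2 to 8 days all 4 responding members had lower mean levels with either protein, but under the common filter only Insm1 passed the threshold among them. Day cannot be told apart from whatever else differed between the 2-day and 8-day samples. Median summed islet endocrine markers were 305 and 1862 CPM at 2 and 8 days with WT, and 456 and 3649 CPM with 6S-A Ngn3. Ductal medians were 8454 and 12440 CPM with WT and 6730 and 15640 CPM with 6S-A Ngn3. The part of these shifts was not tested. Insm1 fell by 2.63 on the log2 scale with WT (SE 0.48, edgeR adjusted p = 0.0393) and fell by 2.17 with 6S-A Ngn3 (SE 0.47, edgeR adjusted p = 0.0335), where 0.112% and 0.245% of genes were called lower. The call was lost without any 1 of the 6 WT replicates (adjusted p 0.0554 to 0.236) and without any 1 of the 6S-A replicates other than replicate 2 at 8 days (0.0645 to 0.226), while the change without one stayed between −2.93 and −1.82. The first technical repeats alone also gave no call (edgeR adjusted p = 0.137 and 0.21).

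Neurod1 changed by −1.74 (SE 0.78, edgeR adjusted p = 0.543) with WT and by −1.15 (SE 0.76, edgeR adjusted p = 0.587) with 6S-A Ngn3. Atoh8 changed by −1.84 (SE 0.78, edgeR adjusted p = 0.508) and −1.25 (SE 0.75, edgeR adjusted p = 0.533). Neurog3 changed by −2.60 with WT (SE 0.57, edgeR adjusted p = 0.0767) and fell by 3.45 with 6S-A Ngn3 (SE 0.58, edgeR adjusted p = 0.0112). Without WT replicate 2 at 8 days the WT change of Neurog3 was −3.67 (adjusted p = 0.0127), and without 6S-A replicate 1 at 2 days the 6S-A change was −3.09 (0.0789). DESeq2 called the WT change too (adjusted p = 0.00709), and with the first technical repeats alone the 6S-A change was −2.87 and not called (0.0682).

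Neurod2 showed the steepest drop but could not enter that fit, since it had no read in WT pools and 4 reads in 6S-A pools at 8 days. With a limit of 3 reads in place of its 0 reads at 8 days, Neurod2 was 41.2-fold lower than at 2 days with WT Ngn3, over pooled reads. The exact 95% lower bound of the same ratio was 33.5-fold. With 6S-A Ngn3 it was 72.6-fold lower over pooled reads (exact 95% interval 28.4 to 267). When genes detected at either time were tested, a filter chosen after seeing the data, the fitted change was −5.94 with 6S-A Ngn3 (SE 1.14, edgeR adjusted p = 0.0223) and also passed with WT Ngn3 (edgeR adjusted p = 0.0397). Because Neurod2 met that filter only through its 2-day reads, where it is high, these p-values lend the fall no support of their own. Whether the 6S-A minus WT difference itself changed between 2 and 8 days was tested as an interaction, and no gene was called by edgeR (445 genes at an unadjusted p under 0.05), while DESeq2 called 4, none of them a member. The log2 interaction was 0.58 (SE 1.07) for Neurod1, 0.46 (SE 0.64) for Insm1 and 0.59 (SE 1.06) for Atoh8.

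Ordered by mean level, Neurod1, Insm1 and Atoh8 each ran from 6S-A at 2 days through WT at 2 days, 6S-A at 8 days and WT at 8 days down to the control cells. Among neighbours in that order the replicates of 6S-A and WT overlapped at 2 days for each gene. For Insm1, WT at 2 days and 6S-A at 8 days did not overlap, nor did WT at 8 days and the no-color cells. For Neurod1 and Atoh8 the 2-day WT and 8-day 6S-A replicates overlapped, and only the step down to the no-color cells was free of overlap. Neurog3 differed in the order, with WT above 6S-A at 8 days, but those replicates overlapped.

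Levels of different genes were compared per length, as CPM per kilobase of exon (RPKM). Neurog3 was divided by its annotated exon length of 1674 bases. The vectors carried the coding sequence of Ngn3, so its RPKM is not comparable with those of the members. With WT Ngn3 at 2 days the mean RPKM was 85.5 ± 39.7 for Neurog3, 40.8 ± 26.8 for Insm1, 27.2 ± 24.6 for Neurod1, 4.72 ± 1.01 for Atoh8 and 2.30 ± 2.21 for Neurod2 (SD, n = 3). With 6S-A Ngn3 it was 89.5 ± 33.1, 51.7 ± 20.1, 29.1 ± 9.31, 5.07 ± 0.280 and 3.01 ± 0.821. Insm1 and Neurod1 thus stood well above Atoh8 and Neurod2 at 2 days. At 8 days Insm1 and Neurod1 were close, at 6.35 ± 1.45 and 7.91 ± 7.53 RPKM with WT and 10.6 ± 5.88 and 12.5 ± 8.83 RPKM with 6S-A Ngn3, and Atoh8 was at 1.28 ± 0.274 and 2.01 ± 1.92 RPKM.

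Related factors showed that the response was uneven within gene families. Of 20 other neural and pancreatic bHLH genes, 9 were tested at 2 days and 3 rose with WT Ngn3 (median log2 fold change of those tested 3.92, against 0.01 over all genes). Among these were Bhlhe22, a factor of neuronal differentiation (log2 fold change 6.52 with WT and 9.01 with 6S-A Ngn3), and Nhlh1, a neuronal bHLH gene (3.92 and 4.71). With 6S-A Ngn3 Nhlh2 rose as well (4.59) and Ascl2 fell by 1.80, while the other proneural genes Neurog1, Neurog2, Atoh1 and Atoh7 had at most 4 reads in any group. The Nhlh2 call was lost without GFP replicates 2 or 3 or 6S-A replicate 3 (adjusted p = 0.0704, 0.0591 and 0.0813), and the Ascl2 call without GFP replicates 2 or 3 or 6S-A replicates 1 or 2 (0.107, 0.102, 0.135 and 0.116). At 8 days 2 of the 20 genes were tested and none passed in either comparison.

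Among the 7 E proteins and Id inhibitors, the partners and antagonists of bHLH factors, Id4 rose by 3.95 on the log2 scale with either protein and Tcf4 by 0.88 with WT and 0.94 with 6S-A Ngn3. Id2 fell by 0.73 and 0.52, a call lost with 6S-A Ngn3 without GFP replicates 2 or 3 or 6S-A replicate 1 (adjusted p = 0.0807, 0.0688 and 0.0938). The other 4 did not pass, and the median over all 7 was 0.30 with WT and 0.40 with 6S-A Ngn3. Id4 was also the only 1 of the 7 to pass at 8 days (5.63 with WT and 5.28 with 6S-A Ngn3), and Tcf3 fell by 1.45 between 2 and 8 days with 6S-A Ngn3. Both are insecure: the Id4 call was lost in 9 of 12 leave-one-out fits with either protein (adjusted p up to 0.407 without WT replicate 2 and up to 0.101 for 6S-A without no-color replicate 2 of the 6S-A organoids), and the Tcf3 call without 6S-A replicates 1 or 3 at 2 days (0.0802 and 0.0549).

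Of 10 SNAG-domain zinc finger genes, the class of Insm1, 7 were tested at 2 days. Snai2, a repressor known from epithelial-mesenchymal transition, rose with both proteins (2.84 and 2.88), and Snai1 passed with 6S-A Ngn3 (2.24) and not with WT (1.69), a difference that was itself not called. The 6S-A call was lost without GFP replicates 1 or 2 (adjusted p = 0.0541 and 0.0759) or 6S-A replicates 1 or 2 (0.0549 and 0.0612). Ovol1, an epithelial gene, fell by 1.62 and 2.04. The list's median was −0.38 with WT and 0.53 with 6S-A Ngn3. At 8 days Snai2 passed with 6S-A Ngn3 (3.29) and not with WT (2.45), and no other gene of the list was called.

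**Figure D4:**
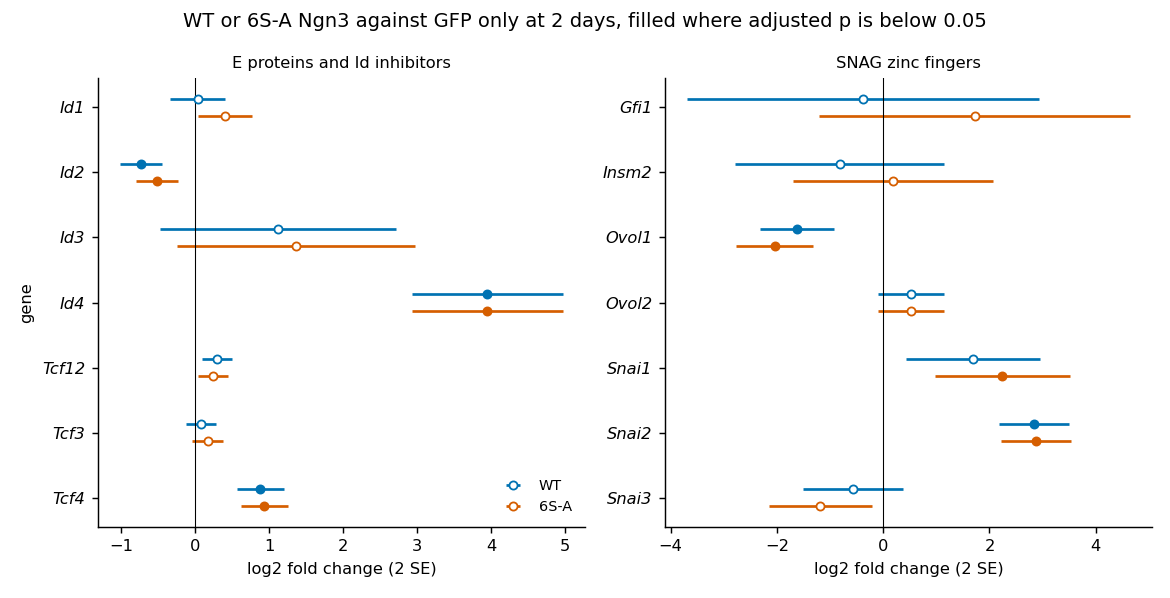
Log2 fold change over GFP at 2 days, with bars of ±2 SE, for the tested genes of the E protein and Id list and of the SNAG zinc finger list, WT and 6S-A in separate colors; filled symbols passed an adjusted p of 0.05. Id4 stands highest in the first list at 3.95 with either protein, and Snai2 rises in the second (2.84 and 2.88) while Ovol1 falls.

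Most of the 19 genes listed as the Neurog3 cascade moved with the members: 16 rose with WT Ngn3 and none fell (median 6.37), and 17 rose and Nkx6-1 fell by 2.12 with 6S-A Ngn3 (median 6.43). Examples are Rfx6, an endocrine regulatory factor (10.15 with WT and 10.67 with 6S-A Ngn3), Myt1, a zinc finger factor downstream of Ngn3 (9.57 and 10.13), its relative St18 (9.15 and 9.62), and Cbfa2t3, a corepressor (6.84 and 7.42). Hes6, a Notch-pathway bHLH gene that promotes differentiation, rose by 2.99 and 3.38. At 8 days 7 genes of this list were still higher with WT and 11 with 6S-A Ngn3. Against the no-color cells of the WT organoids alone, the WT calls of Nkx2-2, Cbfa2t3 and Dll4 were lost (edgeR adjusted p = 0.0544, 0.228 and 0.12). Hes6 was the only one of the list to fall between 2 and 8 days (by 1.55 and 1.39). The Hes6 call was lost without any 1 of the replicates other than replicate 2 at 8 days, for WT (adjusted p up to 0.268) and for 6S-A Ngn3 (up to 0.16).

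Neurod1's own known targets in islet cells responded in part. Of 10 such genes, 6 were tested at 2 days, and 5 of them rose with both proteins, among them Chga, a granule protein (8.15 with WT and 8.99 with 6S-A Ngn3), Pcsk1, a prohormone convertase (6.99 and 7.91), and the potassium channel genes Kcnj11 (6.21 and 5.52) and Abcc8 (4.93 and 5.96). The median over the 6 was 5.57 and 5.74. The insulin genes were absent, with 1 Ins1 read and no Ins2 read over all libraries. At 8 days 5 genes were tested, and 2 were higher with WT and 3 with 6S-A Ngn3. Pcsk1 passed with both proteins (7.46 and 8.81), and Abcc8 passed with 6S-A Ngn3 (7.58) and not with WT (7.02). The Abcc8 call was lost in 8 of 12 leave-one-out fits, without any 1 of the 6 no-color replicates or 6S-A replicates 1 or 2 (adjusted p 0.0615 to 0.151). Chga, Ins1 and Ins2 are also among the islet endocrine markers. Between 6S-A and WT Ngn3 no gene of any of these 5 lists was called at either time.

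The genes with the profile most like each member were sought among genes tested at both times, by the Pearson correlation of log2 CPM over the 21 summed replicates. For Neurod1 these were Kcnb2 (r = 0.978), St18 (0.977), Gng4 (0.974), Vwa5b2 (0.970) and Cryba2 (0.968). For Insm1 they were Nptx1 (0.984), Dpysl3 (0.979), Nkx2-2 (0.978), Tff3 (0.977) and Nptx2 (0.975). Atoh8 was nearest to Apcdd1 (0.966), Plxna2 (0.956), Insm1 (0.953), Pde1c (0.953) and Lzts1 (0.952), so another member stood in its first 5.

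Neurod2 had lower values, led by Smarcd2 (0.930), C2cd4b (0.927), Ubd (0.926), Btbd17 (0.921) and Apod (0.916). Neurog3 ranked 7 for Insm1, 13 for Atoh8, 46 for Neurod1 and 242 for Neurod2. These correlations run mainly along the contrast of Ngn3 cells and controls, which all induced genes share.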

How the data were processed

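RNA of 77 pools of 50 sorted cells was amplified by Smart-seq2 and sequenced single-end. The authors aligned reads with GSNAP to mm10 and deposited raw read counts per gene made with HTSeq (0.5.3p3, Ensembl release 81); the strand setting is not given in the sources used here, so overlapping genes cannot be told apart. The 92 spike-ins and the no-feature (14.4%), ambiguous (8.06%) and unaligned (22.5%) reads were left out. Limits on libraries were a spike-in share below 30%, more than 1000000 gene reads and more than 10000 genes detected.

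Counts were summed per biological replicate and tested with edgeR 4.0.16 (quasi-likelihood, robust, TMM; R 4.3.3) over all genes detected in at least 5 libraries of the time point, with Benjamini-Hochberg adjustment at 0.05: 1 fit per time point and 1 joint fit of 7 groups for changes over time (19589 genes). CPM are per 1000000 reads on genes. For pools, 0.5 was added before log2, and likeness used a prior count of 2. Summed replicates held 17757303 to 26627347 reads at 2 days and 2397470 to 17919627 at 8 days, so 8-day values are less precise; intervals and limits of 3 reads cover counting error only. Alternatives were DESeq2 1.42.0, scran 1.30.0 size factors, other filters, no library limits, the first technical repeat alone, each no-color group alone, a replicate block and each replicate left out.

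Replicate numbers paired the samples: deviations of same-numbered replicates correlated at 0.145 to 0.559 at 2 days and 0.117 to 0.674 at 8 days in every pair, against medians of −0.139 and −0.263 for other pairs. In 6 pairs of technical repeats the counts differed little more than sampling noise (chi-square per gene 1.59 to 2.35, next 5.21); they were summed, so n in the fits is unaffected, and pool values are also given without technical repeat 3, an alternative chosen after seeing the data. The members and gene lists were chosen with earlier results of these data known. Named were Neurog3, the members, list genes past the threshold (up to 5 a list, by p) and each member's 5 nearest genes; list genes at no or few reads and those short of the threshold were added after their values were seen. Some list genes that passed are not reported here. The test code was checked on simulated counts. Coordinates are from GENCODE M21 (GRCm38).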

Additional observations from a re-analysis of the deposited data

Results flagged for a closer look

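The library left out of the fits was WT Ngn3 at 8 days, replicate 2, technical repeat 1 (849278 reads). It held reads of Neurog3, Neurod1, Insm1 and Atoh8 and none of Neurod2 or Neurod4. At its depth a single read is above the highest no-color pool for each of these genes. Neurog3 was at 27.1 CPM (23 reads), Neurod1 at 3.53 CPM (3 reads), Insm1 at 12.95 CPM (11 reads) and Atoh8 at 7.07 CPM (6 reads), against at most 1.16, 0.497, 0.580 and 0.212 CPM in any no-color pool.

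Among the 6 no-color pools from WT organoids, replicate 1 technical repeat 2 stood apart for Neurog3, at 0.846 CPM from 4 reads with the next pool at 0.315 CPM. Its gap was 0.627 of the range, just above the critical value of 0.625; chance flags about 1 in 20 such groups, and this was 1 of 10 groups of pools checked.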

How the results depend on the processing

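The rise of Neurod1, Neurod2 and Insm1 over controls at 2 days, of Atoh8 at 2 days, and of Neurod1 and Insm1 at 8 days passed the threshold under every alternative run. Over all member values, 229 of those under other settings kept their side of the threshold and their direction, 6 lost a call and 5 reversed; with 1 replicate left out these numbers were 206, 17 and 11. Genes called numbered 2810 (WT over GFP), 4305 (6S-A over GFP), 3 (6S-A against WT, 2 days), 180 and 337 (WT and 6S-A over no-color), 0 (6S-A against WT, 8 days), 33 and 110 (8 against 2 days, WT and 6S-A) and 0 (interaction). In that order of comparisons, the first technical repeats alone gave 1201 and 1658 at 2 days, 63 for 6S-A against WT, 111 for WT at 8 days, and 0 and 5 between times, with 0 members called in either; the differences of 6S-A from WT reversed for Neurog3 (−0.37) and Neurod1 (−0.93) at 2 days and for Atoh8 at 8 days (−0.010), as did the Atoh8 interaction (−0.34). The replicate block gave 4291 for WT over GFP, 147 for 6S-A against WT at 2 days, and 472 and 704 over no-color; it changed no other call of a member, and reversed Atoh8 for 6S-A against WT at 8 days (−0.026) and in the interaction (−0.056). DESeq2 gave 101 for 6S-A against WT at 2 days, 551 and 822 over no-color, 262 and 716 between times and 4 for the interaction. No filter on low counts gave 100 and 8 for 6S-A against WT at 2 and 8 days and 724 and 1044 over no-color, each no-color group alone 49 and 115, scran 20 and no library limits 9 for WT between times. With edgeR's own filter or with genes detected at either time, 2 members passed between times with each protein, Insm1 and Neurod2. Neurod2 met those filters only through its 2-day reads, so its added call is not separate support.

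With 1 replicate left out, calls ranged from 1964 to 2418 for WT and 3341 to 3797 for 6S-A over GFP (4 members), 0 to 4 for 6S-A against WT at 2 days, 63 to 226 (2 to 3 members) and 191 to 345 over no-color, 0 to 2 for 6S-A against WT at 8 days, and 0 to 33 (0 members) and 3 to 163 (0 to 1 members) between times. Differences of 6S-A from WT at 2 days ranged from −0.31 to 0.50 for Neurog3, −0.32 to 1.11 for Neurod1, −0.024 to 0.99 for Insm1 and −0.084 to 0.24 for Atoh8; at 8 days from −1.26 to 0.24 for Neurog3, 0.024 to 1.58 for Neurod1, 0.23 to 1.08 for Insm1 and −0.33 to 1.25 for Atoh8. Interactions ranged from −1.30 to 0.22 for Neurog3, −0.42 to 1.52 for Neurod1, −0.20 to 0.81 for Insm1 and −0.37 to 1.13 for Atoh8. Of calls over no-color, 81.1% (WT) and 80.1% (6S-A) were higher, against 63.2% and 57.1% by DESeq2 and 93.5% for WT with scran, whose scaling moved the median of all genes by 0.220 and 0.195 on the log2 scale there. Of calls for 6S-A against WT at 2 days 66.7% were higher, against 39.6% by DESeq2, and of 6S-A calls between times 56.4%, against 38.5% with scran. Depth limits Neurod2 and Neurod4 at 8 days. With the first technical repeats alone, list genes also lost their 2-day calls: Id2, Id4, Tcf4, Ovol1, Kcnj11 and Nhlh1 with both proteins, Bhlhe22 with WT, and Nhlh2, Ascl2 and Snai1 with 6S-A Ngn3. At 8 days that setting ended the 6S-A calls of Id4, Abcc8 and Snai2, the WT call of Id4, and the later falls of Hes6 and Tcf3; each no-color group alone ended those of Id4 and Abcc8. The causes were not tested.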
